A study of Mus musculus with 6 samples.

Results

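The genes described here are 8 genes with apparent transcript switches in mouse duodenum: Gjc1, Cd36, Ly6e, Ptp4a3, 1810019J16Rik, Smarcc2, Haus7 and Cct3. They were chosen because 1 of their RefSeq transcripts was near 0 in every library of 1 group while the level of the whole gene was about the same in both groups. They are 8 of the 23235 gene symbols in the tables and hold 27 of the 30028 transcripts. The choice used the transcript levels and gene totals of the mutants and controls, so the differences given for these genes describe how they were picked and carry no test.

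RNA was sequenced from the first 2 cm of the intestine below the stomach in 6 mice of mixed background, all 6 weeks old, with 1 library per mouse. The 3 mutants, called TNint, were Nkx2.2flox/TN; Villin-Cre/+; Rosa26Tomato/+. The 3 controls were Nkx2.2flox/+ without Cre, and controls 1 and 2 but not control 3 also carried Rosa26Tomato/+. Every mouse thus carried a floxed allele of Nkx2.2, a transcription factor of enteroendocrine cells, and TN is known as an allele with a mutated tinman domain. Villin-Cre acts in the gut epithelium, and the TN allele is carried by every cell of a mutant, so Cre, the TN allele elsewhere and the change in the epithelium cannot be told apart by these groups. The tissue is the whole wall of the gut.

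A gene can give several mature transcripts by starting at different promoters, by joining different splice sites or by including different exons. A change of first exon often alters only the untranslated leader, whereas a skipped coding exon alters the protein. The deposited tables hold the level of each annotated transcript in FPKM (fragments per unit of transcript length and sequencing depth), which an estimator obtains by dividing the reads of a gene among its annotated transcripts. Reads from bases shared by several transcripts do not by themselves tell those transcripts apart.

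Per FPKM, the deposited mean read depth was 1.69 to 2.61 in the mutants and 1.42 to 2.14 in the controls. Nkx2-2 itself had 0.748, 0.744 and 0.666 FPKM in mutant 1, 2 and 3, against 1.0, 1.03 and 1.27 FPKM in control 1, 2 and 3. All 8 duodenal enterocyte markers were detected, with a summed level of 21500 to 30700 FPKM in mutants and 18700 to 30100 FPKM in controls. Summed markers of pancreatic acinar cells ranged from 1390 to 6170 FPKM in mutants and from 9.19 to 5240 FPKM in controls. Xist, the RNA of the inactive X chromosome, was at 23.2 FPKM in mutant 3 and 34.0 FPKM in control 3 and below 0.07 FPKM in the other libraries, which alone held transcripts of the Y chromosome at more than trace level. Nothing in the labels gives a litter, a sex or a sequencing batch.

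In the 8 genes, 8 transcripts, 1 per gene, stayed under 0.05 FPKM in every library of 1 group and above it in every library of the other. The highest value on the near-0 side was 0.00455 FPKM. The near-0 transcript was low in the mutants for Smarcc2, Ptp4a3, Cct3 and Ly6e and low in the controls for Gjc1, Cd36, 1810019J16Rik and Haus7. Of all 19827 transcripts with a mean of at least 0.1 FPKM, 37 (0.187%) had this pattern, 18 of them (0.0908%) near 0 in mutants and 19 (0.0958%) near 0 in controls. Gene totals differed by −0.15 to 0.1 between mutants and controls on the log2(FPKM + 0.1) scale. In bulk tissue, fewer cells of a type and less RNA per cell cannot be told apart, and this holds for every level below.

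**Figure D1:**
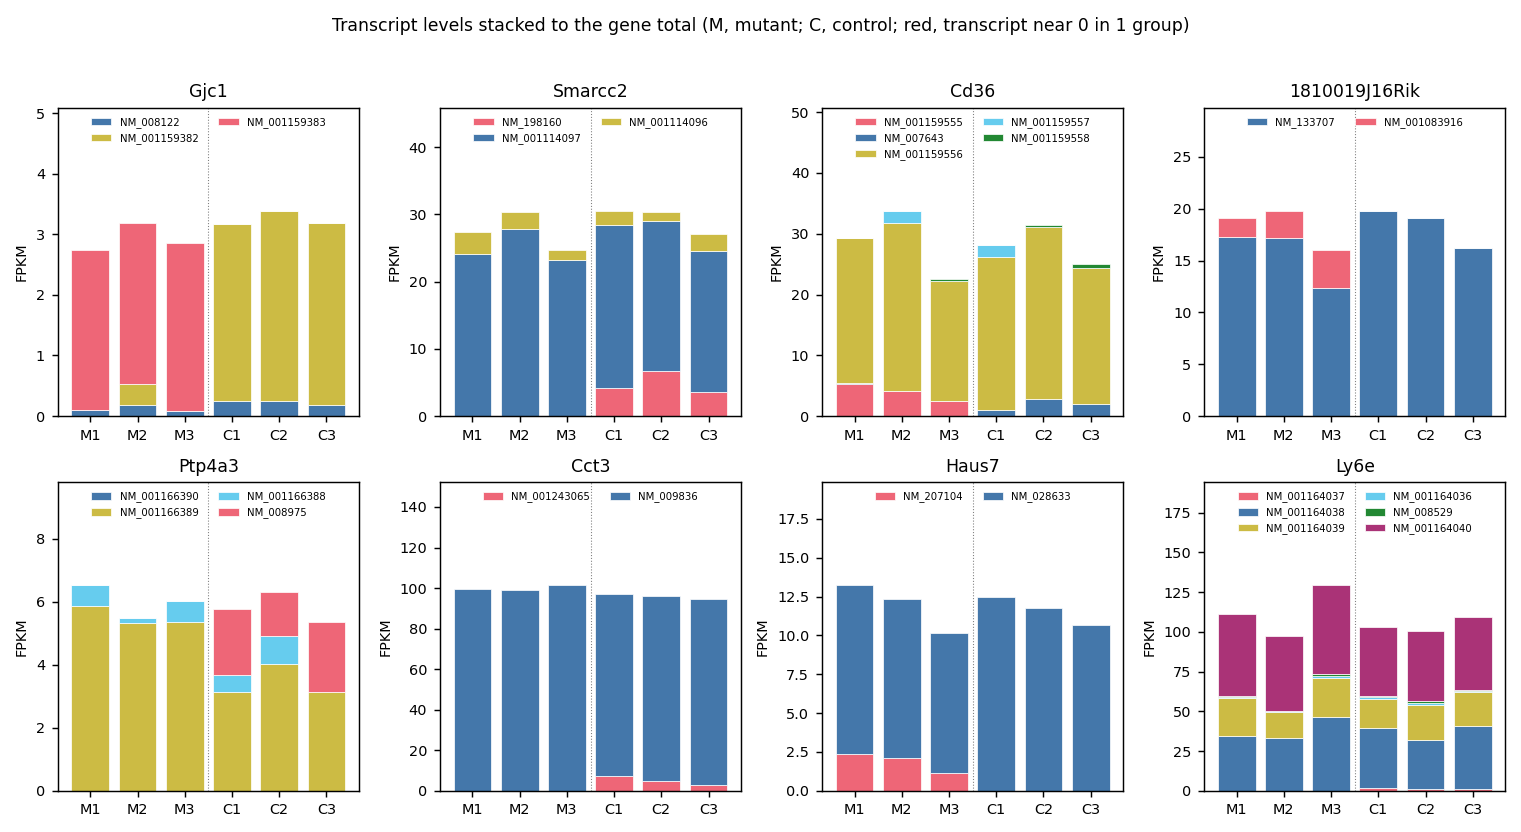
Transcript levels in FPKM (vertical axes) stacked to the gene total for each of the 3 mutant libraries (M1 to M3) and the 3 control libraries (C1 to C3), 1 panel per gene. The red segment, the transcript near 0 in 1 group, replaces nearly the whole of Gjc1 but is a thin layer of Cct3 and Ly6e, while bar heights overlap between the groups in 7 of the 8 genes.

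Gjc1 encodes connexin 45, a gap junction subunit of smooth muscle, endothelium and conducting tissue. On mm9 it lies on the minus strand at chr11:102660792-102681000 and has 3 RefSeq transcripts with 3 starts and the same 1188 coding bases. They differ in their first, noncoding exon alone: 183 bases at chr11:102680818-102681000 belong to NM_001159383, 190 bases at chr11:102680284-102680473 to NM_001159382, and 739 bases at chr11:102665595-102666333 to NM_008122. NM_001159383 had 2.63, 2.66 and 2.77 FPKM in mutant 1, 2 and 3, against 0.000394, 0.000149 and 0.000888 FPKM in control 1, 2 and 3. NM_001159382 had 0.000116, 0.357 and 0.000142 FPKM in the mutants, against 2.91, 3.14 and 3.00 FPKM in the controls. The leading transcript of one group was thus near 0 in the other, apart from mutant 2, which kept a small amount of the transcript that led in controls.

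NM_001159383 made up 92.2% ± 7.77 of Gjc1 in mutants and 0.015% ± 0.012 in controls, and NM_001159382 made up 3.73% ± 6.45 in mutants and 93.0% ± 1.17 in controls (SD, n = 3 each). The third transcript, NM_008122, had 0.105, 0.178 and 0.0811 FPKM in mutants and 0.252, 0.248 and 0.181 FPKM in controls. Added together, the 2 exchanged transcripts reached 2.63, 3.01 and 2.77 FPKM in mutants and 2.91, 3.14 and 3.00 FPKM in controls, which overlap. The whole gene had 2.74, 3.19 and 2.85 FPKM in mutants and 3.16, 3.39 and 3.19 FPKM in controls (log2 difference −0.15, SE 0.11). Beside this gene, the summed level of 5 smooth muscle markers was 393 to 501 FPKM in mutants and 507 to 696 FPKM in controls, which do not overlap, and 3 endothelial markers summed to 25.6 to 30.5 FPKM in mutants and 26.6 to 33.0 FPKM in controls. None of these markers was at 0, and their part in the Gjc1 values was not tested.

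The starts of the exchanged Gjc1 transcripts lie close to each other but in sequence of different composition, so the 200 bases before each start are shown, minus strand, mm9, with the motif that was found in capitals. They lie at chr11:102681001-102681200 and chr11:102680474-102680673.
NM_001159383 upstream: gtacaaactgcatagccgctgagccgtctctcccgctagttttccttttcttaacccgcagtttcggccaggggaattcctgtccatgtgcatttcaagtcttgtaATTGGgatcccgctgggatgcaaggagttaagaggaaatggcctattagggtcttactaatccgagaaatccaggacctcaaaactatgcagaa
NM_001159382 upstream: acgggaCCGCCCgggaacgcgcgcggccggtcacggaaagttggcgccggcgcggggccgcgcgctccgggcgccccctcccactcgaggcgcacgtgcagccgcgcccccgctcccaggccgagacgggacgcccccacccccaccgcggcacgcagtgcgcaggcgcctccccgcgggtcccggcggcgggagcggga
Both strands were searched for 3 motifs. The TATA box was searched as TATAAA. Its frequent companion upstream, the CCAAT box, was searched by the 5 letters of its name. The GC box, known as a site of Sp1 and its relatives, was searched as GGGCGG. No window shown held more than 1 match, so no matches overlap. The window before NM_001159383 held the CCAAT box once, on the opposite strand, with 7 CpG dinucleotides and 48.0% GC. The window before NM_001159382 held the GC box once, on the opposite strand, with 38 CpG and 83.0% GC. Over 32851 RefSeq promoter windows of the same length on GRCm38.p6, 10% held the TATA box, 29.3% the CCAAT box and 31.0% the GC box, and the medians were 5 CpG and 53.0% GC. A match describes letters in the window and no binding site.

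Cd36 encodes a membrane receptor that takes up long-chain fatty acids, and in the upper intestine it sits on the enterocyte surface. The gene spans chr5:17287508-17394777 on the minus strand with 5 RefSeq transcripts and 3 starts, and the 4 that could be matched to GENCODE models share the same 1416 coding bases. NM_001159555 had 5.23, 4.08 and 2.44 FPKM in mutant 1, 2 and 3, against 0.000663, 0.000338 and 0.000191 FPKM in control 1, 2 and 3. NM_007643 has the same start and end and is listed as 3542 bases long, 3 more than NM_001159555. It had 0.165, 0.00632 and 0.000263 FPKM in mutants, against 1.02, 2.84 and 1.91 FPKM in controls. These near-twins were thus high in opposite groups, and their sum of 5.39, 4.09 and 2.44 FPKM in mutants overlapped the sum of 1.02, 2.84 and 1.91 FPKM in controls.

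NM_001159555 itself had no matched model, but 3 bases are what separates the matched Cd36 transcripts at 1 splice acceptor, chr5:17334800-17334802, in the untranslated leader. NM_007643, NM_001159556 and NM_001159558 keep these bases and NM_001159557 lacks them. The acceptor is shown because AG ends both the intron and the optional bases, with 15 intron bases in lower case and the optional exon bases in capitals (minus strand, mm9, chr5:17334800-17334817).
Cd36 acceptor: acctctttctaatagTAG
Most Cd36 RNA was assigned to NM_001159556, with 23.98, 27.7 and 19.8 FPKM in mutants and 25.1, 28.2 and 22.5 FPKM in controls. NM_001159557 was at 2.04 FPKM in mutant 2 and 1.92 FPKM in control 1 and near 0 in the other 4 libraries, so the estimates also moved between libraries of the same group. NM_001159558 was at 0.293 FPKM in mutant 3, 0.382 FPKM in control 2 and 0.648 FPKM in control 3 and near 0 elsewhere. NM_001159555 held 13.6% ± 3.72 of Cd36 in mutants and 0.001% ± 0.001 in controls (SD, n = 3 each). The whole gene had 29.4, 33.8 and 22.6 FPKM in mutants and 28.1, 31.4 and 25.02 FPKM in controls (log2 difference 0.01, SE 0.16).

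Ly6e encodes a small membrane protein with a lipid anchor, a member of the Ly6 family known in mouse for an immune role. Its locus on the plus strand is chr15:74785481-74790335, with 6 RefSeq transcripts and 3 starts, of which 3 were matched to GENCODE models with the same 408 coding bases. NM_001164037 had 0.000617, 9.88e-06 and 1.99e-05 FPKM in mutant 1, 2 and 3, against 1.60, 0.969 and 1.19 FPKM in control 1, 2 and 3. This is 1.2% ± 0.308 of the gene in controls (SD, n = 3), the smallest share among the 8 near-0 transcripts. Among the matched models it alone holds the 20 bases at chr15:74785481-74785500 at the start of the leader, and it lacks 147 leader bases at chr15:74785766-74785912. The unmatched NM_001164038 and NM_001164039 begin at the same base, so these 20 bases are not its own.

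The 3 transcripts from that start together had 58.2, 49.7 and 70.8 FPKM in mutants and 57.6, 53.8 and 62.2 FPKM in controls, which overlap. NM_001164038 alone had 34.3, 32.9 and 46.5 FPKM in mutants and 37.8, 31.2 and 39.3 FPKM in controls. NM_001164039, listed as 3 bases shorter, had 23.9, 16.8 and 24.3 FPKM in mutants and 18.2, 21.6 and 21.7 FPKM in controls. A 3-base step also separates NM_001164036 from NM_008529, at the acceptor shown here with the optional bases in capitals (plus strand, mm9, chr15:74788192-74788209). Here too, AG ends both the intron and the optional bases.
Ly6e acceptor: ctgcctctctcacagTAG
NM_001164036 ranged from 0.484 to 1.56 FPKM in mutants and from 0.764 to 1.73 FPKM in controls, and NM_008529 from 0.252 to 0.839 FPKM in mutants and from 0.429 to 1.23 FPKM in controls. NM_001164040, from the start furthest downstream, had 51.5, 47.2 and 56.2 FPKM in mutants and 43.4, 43.6 and 46.3 FPKM in controls, which do not overlap. The gene total overlapped, at 111, 97.6 and 129 FPKM in mutants and 103, 100.4 and 110 FPKM in controls (log2 difference 0.10, SE 0.11).

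Ptp4a3 encodes PRL-3, a membrane-tethered phosphatase known for its high level in metastatic tumours. The plus-strand locus, chr15:73553575-73589196, has 4 transcripts and 3 starts. NM_008975 had 4.06e-05, 2.66e-05 and 3.14e-05 FPKM in mutant 1, 2 and 3, against 2.09, 1.39 and 2.22 FPKM in control 1, 2 and 3. Its own bases are a noncoding first exon of 440 bases at chr15:73578456-73578895, and it shares its 519 coding bases with NM_001166389 and NM_001166388. NM_001166389, which begins far upstream with a noncoding exon at chr15:73553575-73553945, had 5.86, 5.33 and 5.34 FPKM in mutants, against 3.15, 4.04 and 3.13 FPKM in controls. It was higher in every mutant than in any control, and NM_008975 was the reverse.

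NM_008975 held 0.001% of Ptp4a3 in mutants and 33.2% ± 10.1 in controls, and NM_001166389 held 91.9% ± 4.75 in mutants and 59.03% ± 4.75 in controls (SD, n = 3 each). NM_001166388 had 0.670, 0.145 and 0.685 FPKM in mutants and 0.534, 0.885 and near 0 FPKM in control 1, 2 and 3. NM_001166390, which codes for a shorter product of 462 bases, was near 0 in all 6 libraries and is the only 1 of the 27 transcripts under the minimum mean of 0.1 FPKM. The gene total was 6.53, 5.47 and 6.03 FPKM in mutants and 5.78, 6.31 and 5.35 FPKM in controls (log2 difference 0.05, SE 0.11). The 200 bases before each of the 2 main starts are shown as for Gjc1, plus strand, mm9, at chr15:73553375-73553574 and chr15:73578256-73578455.
NM_001166389 upstream: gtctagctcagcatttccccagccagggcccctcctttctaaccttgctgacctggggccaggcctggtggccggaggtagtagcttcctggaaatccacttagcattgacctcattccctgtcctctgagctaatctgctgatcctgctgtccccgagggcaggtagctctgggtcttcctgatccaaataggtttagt
NM_008975 upstream: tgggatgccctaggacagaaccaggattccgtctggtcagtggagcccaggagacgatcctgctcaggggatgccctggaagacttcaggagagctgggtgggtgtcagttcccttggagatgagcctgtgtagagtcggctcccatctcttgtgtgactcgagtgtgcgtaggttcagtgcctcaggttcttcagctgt
None of the 3 motifs was in either window on either strand, so no letters are in capitals. The window before NM_001166389 had 2 CpG and 56.0% GC, and that before NM_008975 had 5 CpG and 57.5% GC.

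1810019J16Rik is the older symbol of Kdf1, a gene known in mouse for holding back the growth of epidermal progenitor cells. Located on the plus strand at chr4:133074878-133086705, it has 2 transcripts that share their start, their end and their 1191 coding bases. NM_001083916 keeps 59 further noncoding bases at chr4:133074968-133075026. It had 1.84, 2.68 and 3.74 FPKM in mutant 1, 2 and 3, against 2.32e-05, 9.71e-06 and 1.41e-05 FPKM in control 1, 2 and 3. NM_133707, without these bases, had 17.2, 17.1 and 12.3 FPKM in mutants and 19.8, 19.1 and 16.2 FPKM in controls. NM_001083916 was 15.5% ± 7.03 of the gene in mutants (SD, n = 3), and the gene total overlapped, with 19.1, 19.8 and 16.1 FPKM in mutants and 19.8, 19.1 and 16.2 FPKM in controls (log2 difference 0.00, SE 0.12).

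Smarcc2 encodes BAF170, a scaffold subunit of the BAF chromatin remodelling complex. The locus is chr10:127896292-127927230 on the plus strand, and the 3 transcripts share 1 start and differ in coding sequence. NM_001114097, with 3639 coding bases, alone keeps 342 bases at chr10:127925074-127925415, and NM_001114096, with 3390, alone keeps 93 bases at chr10:127918738-127918830. NM_198160, with 3297 coding bases, lacks both pieces, and no base and no splice junction belongs to it alone. NM_198160 had 0.000147, 0.00455 and 0.000579 FPKM in mutant 1, 2 and 3, against 4.11, 6.75 and 3.56 FPKM in control 1, 2 and 3. It was 0.006% ± 0.008 of Smarcc2 in mutants and 16.3% ± 5.18 in controls (SD, n = 3 each).

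The coding pieces that define the other Smarcc2 transcripts are shown because reads over them are what sets NM_198160 apart (plus strand, mm9). The first is the whole 93-base exon, and the second is the first 60 bases of the long piece, at chr10:127925074-127925133, which continues the exon before it and opens with GT, in capitals, the letters with which introns usually begin.
Smarcc2 exon piece 1: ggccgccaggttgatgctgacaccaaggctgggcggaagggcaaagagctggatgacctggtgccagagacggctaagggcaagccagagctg
Smarcc2 long coding piece, first 60 bases: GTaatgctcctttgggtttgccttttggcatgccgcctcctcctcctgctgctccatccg
NM_001114097 had 24.2, 27.8 and 23.2 FPKM in mutants and 24.3, 22.3 and 20.9 FPKM in controls, and made up 91.1% ± 2.63 of the gene in mutants and 76.8% ± 3.16 in controls (SD, n = 3 each). NM_001114096 had 3.19, 2.65 and 1.59 FPKM in mutants and 2.11, 1.31 and 2.54 FPKM in controls, which overlap. The 2 transcripts without the long piece summed to 3.19, 2.65 and 1.59 FPKM in mutants and 6.22, 8.06 and 6.09 FPKM in controls, which do not overlap. The 2 transcripts without the 93-base exon summed to 24.2, 27.8 and 23.2 FPKM in mutants and 28.4, 29.0 and 24.5 FPKM in controls, which do overlap. The gene total was 27.4, 30.4 and 24.8 FPKM in mutants and 30.6, 30.3 and 27.0 FPKM in controls (log2 difference −0.09, SE 0.10).

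Haus7 encodes a subunit of augmin, the complex from which new microtubules branch inside the mitotic spindle. The gene spans chrX:70682654-70704368 on the minus strand with 2 transcripts that share start and end. NM_028633 has 1092 coding bases, and NM_207104 skips 3 of its exons and has 744. NM_207104 had 2.39, 2.14 and 1.15 FPKM in mutant 1, 2 and 3, against 1.28e-05, 4.03e-06 and 2.17e-06 FPKM in control 1, 2 and 3. It was 15.6% ± 3.66 of Haus7 in mutants (SD, n = 3), and NM_028633 had 10.8, 10.2 and 8.99 FPKM in mutants and 12.5, 11.8 and 10.7 FPKM in controls. The skipped exons and the junction that replaces them are shown because that junction is the only sequence NM_207104 has to itself (minus strand, mm9). The exons, of 92, 159 and 97 bases, lie at chrX:70694150-70694241, chrX:70693531-70693689 and chrX:70693299-70693395, and the junction shows 25 bases on each side, with the downstream exon in capitals.
Haus7 exon piece 1: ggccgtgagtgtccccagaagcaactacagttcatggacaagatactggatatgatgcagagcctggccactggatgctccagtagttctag
Haus7 exon piece 2: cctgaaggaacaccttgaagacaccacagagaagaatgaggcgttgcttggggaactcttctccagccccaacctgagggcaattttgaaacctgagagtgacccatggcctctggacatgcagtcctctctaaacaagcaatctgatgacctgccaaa
Haus7 exon piece 3: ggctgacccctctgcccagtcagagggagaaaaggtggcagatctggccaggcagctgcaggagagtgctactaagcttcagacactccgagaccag
Haus7 skipping junction: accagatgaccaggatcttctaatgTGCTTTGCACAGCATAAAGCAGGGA
The gene total was 13.2, 12.4 and 10.2 FPKM in mutants and 12.5, 11.8 and 10.7 FPKM in controls (log2 difference 0.03, SE 0.12). Haus7 is on the X chromosome, and the Xist-positive library of each group, mutant 3 and control 3, had that group's lowest total. The same was seen for Cd36, Smarcc2 and 1810019J16Rik, which are not on the X chromosome, so it was not particular to Haus7. A link to sex was not tested.

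Cct3 encodes a subunit of TRiC, the ring-shaped chaperonin that folds actin and tubulin. Its locus on the plus strand is chr3:88101038-88125689. Its 2 transcripts have the same 14 exons, the same 13 junctions and the same 1635 coding bases, and both matched 1 GENCODE model. NM_001243065 differs from NM_009836 by 20 bases, 19 at the 5′ end and 1 at the 3′ end. NM_001243065 had 0.000271, 0.000193 and 0.000204 FPKM in mutant 1, 2 and 3, against 7.36, 4.87 and 2.72 FPKM in control 1, 2 and 3. NM_009836 had 99.6, 99.2 and 101.4 FPKM in mutants and 89.8, 91.0 and 92.1 FPKM in controls, and the tables mark its estimate as low in data in all 6 libraries, a mark that 332 transcripts carried. NM_001243065 was 5.17% ± 2.35 of Cct3 in controls (SD, n = 3), and the gene total of 99.6, 99.2 and 101.4 FPKM in mutants lay above the 97.2, 95.9 and 94.8 FPKM in controls (log2 difference 0.06, SE 0.06). Cct3 was the 1 gene of the 8 whose totals did not overlap, where 13.1% of all 15864 genes tested had totals that did not overlap.

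**Figure D2:**
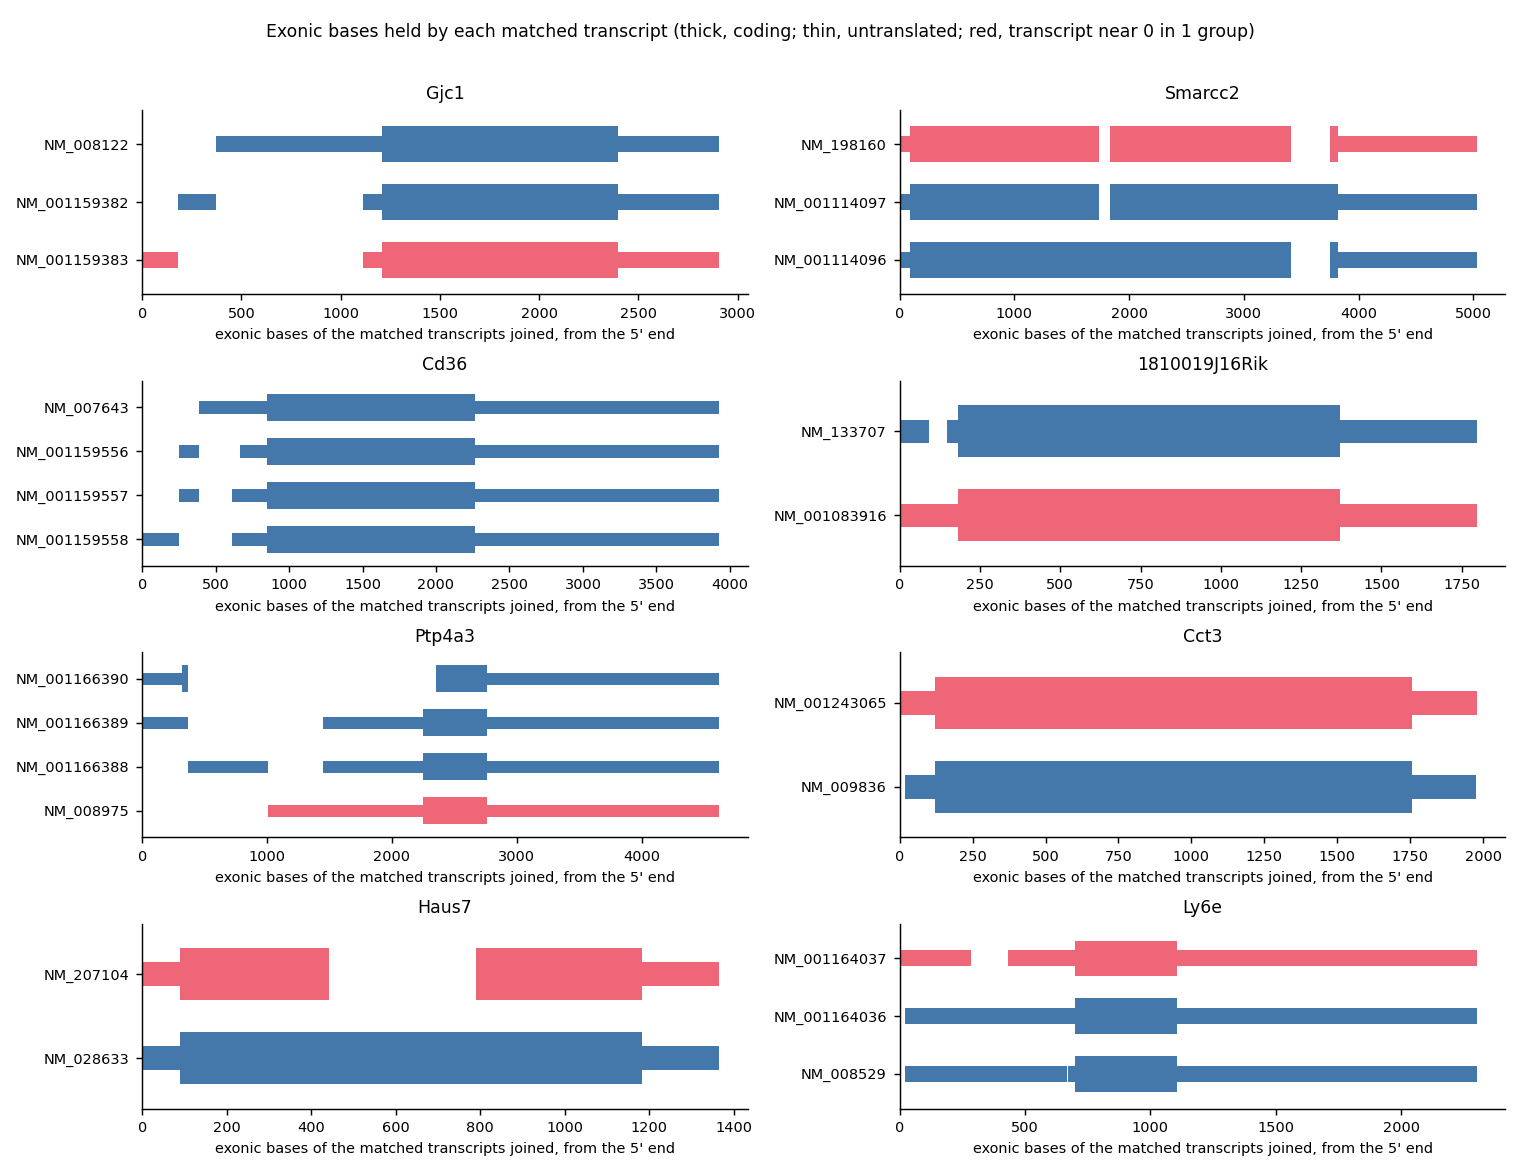
Exonic bases held by each of the 23 matched transcripts, joined without introns and counted in bases from the 5′ end (horizontal axes), with coding bases thick and untranslated bases thin. The transcript near 0 in 1 group is red where it was matched. It differs in coding bases in Smarcc2 and Haus7 and in untranslated bases alone in Gjc1, 1810019J16Rik, Ly6e and Cct3, where the difference is 20 bases at the ends. In Ptp4a3 it differs in untranslated bases alone from NM_001166389 and NM_001166388, whereas NM_001166390 has fewer coding bases.

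Of the 8 near-0 transcripts, those of Smarcc2 and Haus7 lack coding bases that the leading transcript of the gene holds, and those of Gjc1, Ptp4a3, 1810019J16Rik, Ly6e and Cct3 differ from it or from the other matched transcripts outside the coding bases. The transcript of Cd36 was not matched. The deposited tables give a confidence interval for each level. For all 8, the lowest lower bound in the group that held the transcript was above the highest upper bound in the other group, where 139 of the 19827 transcripts (0.701%) showed such a separation. The narrowest gap was in Haus7, with a lowest lower bound of 0.462 FPKM in mutants against a highest upper bound of 0.176 FPKM in controls. For Cct3 the highest upper bound was 0.0678 FPKM in mutants, against a lowest lower bound of 1.94 FPKM in controls. These intervals describe the estimate within a library and hold no variation between mice.

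**Figure D3:**
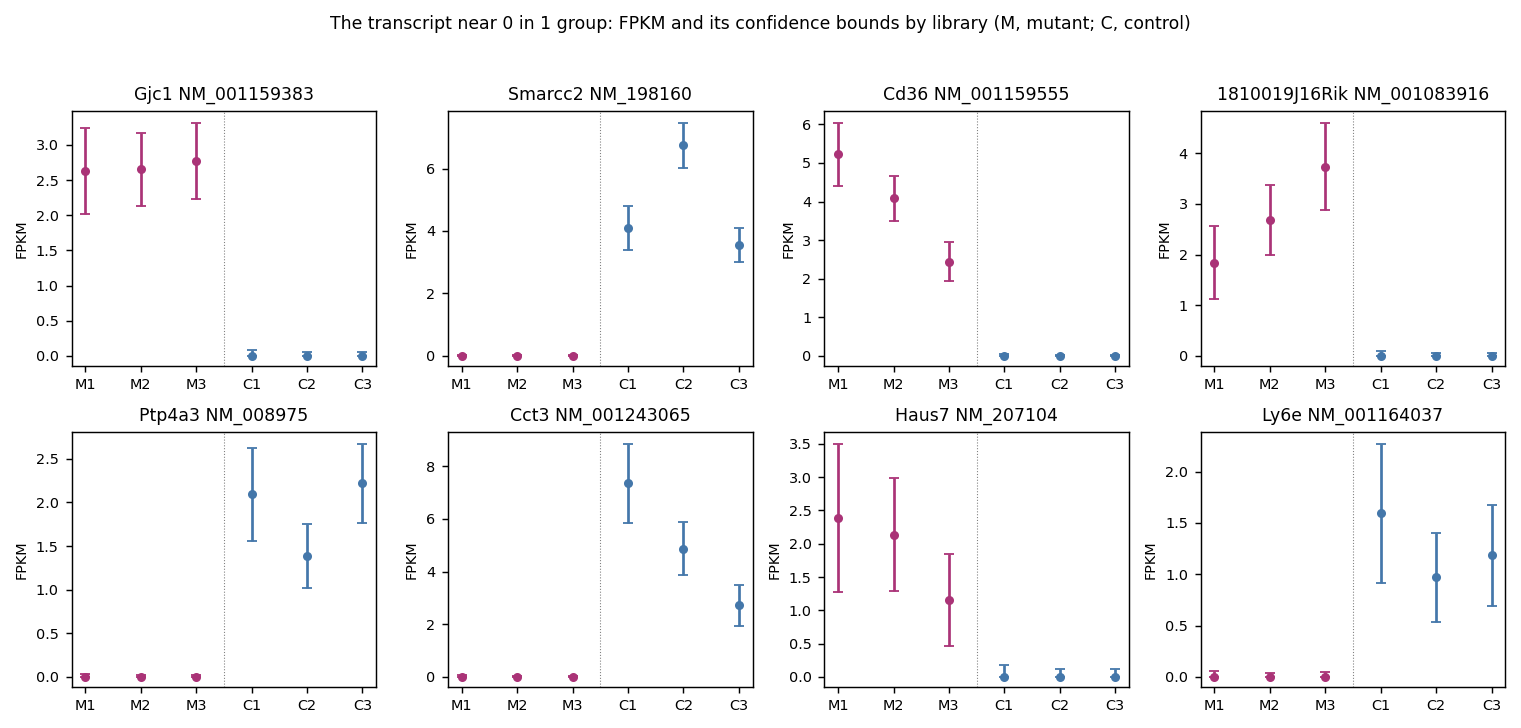
FPKM (vertical axes) of the near-0 transcript of each gene in the 3 mutant libraries (M1 to M3) and the 3 control libraries (C1 to C3), with vertical lines for the deposited confidence bounds. The bounds of the groups are apart in all 8 panels, most narrowly for Haus7.

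Among the 26 member transcripts with a mean of at least 0.1 FPKM, 14 did not overlap between mutants and controls, where 12.0% of all 19827 did not, and 12 had separate intervals. Since the genes were chosen on this contrast, these counts describe the choice. In the authors' deposited table of gene-level counts, which does not divide a gene into transcripts, the 8 genes had log2 fold changes of mutant over control between −0.12 for Gjc1 and 0.16 for Ly6e, each with an adjusted p of 1.0. Cct3 stood at 0.11 in the authors' deposited table.

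A limma fit with a trended variance across all transcripts, on log2(FPKM + 0.1), called 9 of 19827 transcripts (0.0454%) at a Benjamini-Hochberg adjusted p under 0.05. The 8 near-0 transcripts are among them, which follows from choosing the genes on these levels and is no result about them. The count of transcripts with an unadjusted p under 0.05 was 976, where 5% of those tested is 991. No call was left without mutant 3, without control 1 or when the replicate number was a block, and 11, 6, 6 and 12 were made without mutant 1, mutant 2, control 2 and control 3. In the same settings the level differences of the 8 near-0 transcripts moved by at most 0.37 on the log2 scale. Their near-0 values lie far below the 0.1 FPKM added before the log, so the choice of the genes limits such moves. The block cannot move a difference when each replicate number holds a mutant and a control. The small move is therefore no sign of stability. By p, the last transcript inside the threshold was that of Ly6e, and the next outside it was NM_173746 of Gm11818, with 0.791, 0.782 and 0.955 FPKM in mutants and less than 0.0001 FPKM in each control.

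The same fit on transcript usage, the log2 ratio of a transcript to the rest of its gene, called 13 of 6638 transcripts (0.196%) in 10 genes. Of these, 8 lie in Gjc1, Cd36, 1810019J16Rik, Smarcc2, Haus7 and Cct3, and since usage is built from the levels on which the genes were chosen, nothing is read from that number. The usage count at an unadjusted p under 0.05 was 310. No usage call was left without control 1, without control 2 or with the replicate block. The gene-total fit called 0 of 15864 genes (0.0%), with 922 (5.81%) at an unadjusted p under 0.05, and 2 with the replicate block.

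To place these genes among others, 2865 genes with several transcripts at 1 locus and a mean of at least 1 FPKM were screened for a transcript that held less than 5% of the gene in every library of 1 group and at least 10% in every library of the other, with group totals within 1.5-fold. The screen found 13 genes (0.454%), 5 (0.175%) with the transcript low in mutants and 8 (0.279%) with it low in controls. Gjc1, Cd36, Haus7, Smarcc2 and Ptp4a3 were among them. 1810019J16Rik fell just outside, with a lowest share of 9.63% in mutants, and Cct3 and Ly6e stayed under 10% of their gene in controls, at most 7.57% and 1.55%. Leaving out 1 library at a time raised the number found to between 26 and 41, so the count depends on how many libraries must share the pattern.

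Within 1 group, shares this different were common. In mutants, 969 of 6597 transcripts (14.7%) held less than 5% of their gene in 1 library and at least 10% in another library of the same group, and in controls 957 (14.5%) did. At least 1 such transcript was found in 749 genes (26.1%) in mutants and 744 genes (26.0%) in controls. Inside the 8 genes, Ptp4a3 NM_001166388 showed the pattern in both groups and Gjc1 NM_001159382 showed it in mutants, at levels given above. Cd36 NM_001159557 also moved between libraries of the same group, but it reached at most 6.85% of its gene.

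The screen also found 8 genes outside those described here. Low in mutants were NM_020286 of Tspan32, a tetraspanin of blood cells (usage difference −5.20, SE 1.45), NM_001102415 of Slc2a9, a urate transporter (−3.79, SE 0.90), and NR_028317 of 8430429K09Rik (−1.68, SE 0.64). Tspan32 shows the unevenness, with 0.000179 FPKM and less in mutants against 1.27, 0.297 and 1.35 FPKM in controls. Low in controls were NM_172135 of Mterf, a mitochondrial transcription factor (7.38, SE 2.01), NM_173746 of Gm11818 (6.34, SE 0.93), NM_001199304 of Atxn1, the ataxin-1 gene (4.81, SE 0.85), NM_001252549 of BC017643 (4.49, SE 0.61) and NM_025967 of D16Ertd472e (3.34, SE 0.57). NM_001252549 of BC017643 had 3.44, 3.80 and 3.66 FPKM in mutants against 0.188, 0.204 and 0.0146 FPKM in controls. The usage difference was 8.34 (SE 0.69) for Gjc1 NM_001159383 and −5.70 (SE 0.52) for Smarcc2 NM_198160 on the same log2 scale.

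The 13 transcripts found by the screen differed in length from the leading other transcript of their gene by a median of 125 bases, against 123 bases over all 6597 transcripts examined. A difference of at most 20 bases was seen in 3 of the 13 (23.1%) and in 863 of all (13.1%). The annotated start was shared with the leading other transcript in 7 of the 13 (53.8%) and in 58.6% of all. These shares describe few transcripts and no test was made.

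**Figure D4:**
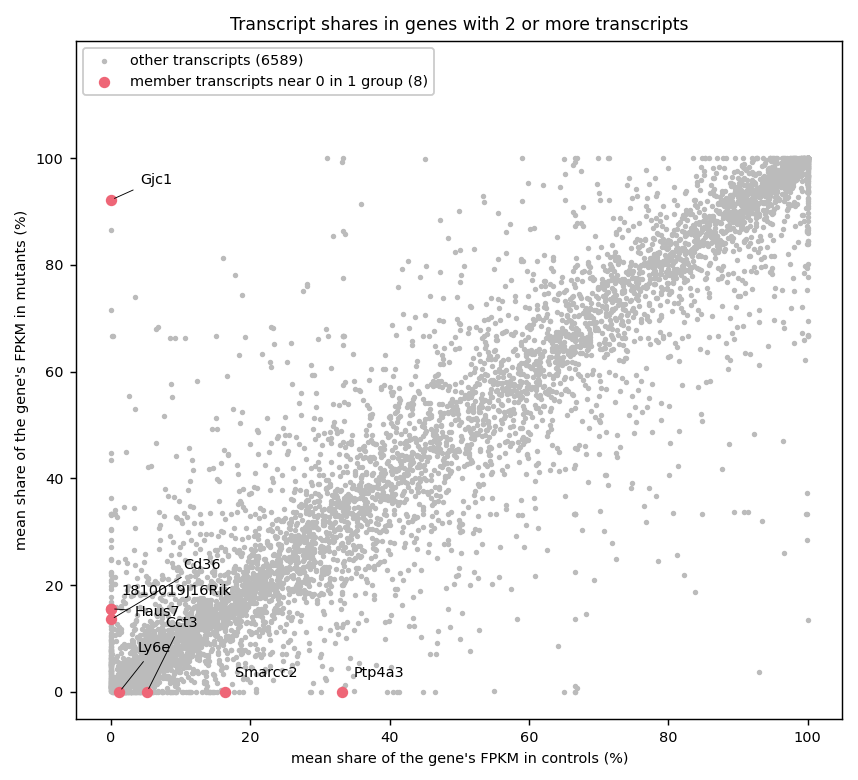
Mean share of each transcript in its gene's summed FPKM, in percent, in mutants (vertical axis) and controls (horizontal axis), for 6597 transcripts of the genes examined in the screen. The 8 near-0 transcripts (red) lie on the axes, together with many grey points that share the edge, and Gjc1 at 92.2% in mutants lies furthest from the diagonal among the 8.

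Genes that work with these 8 were looked at by their gene totals, in the same limma fit over all 15864 genes. Of 96 partner genes tested, none rose or fell past the adjusted threshold (0.0% of all genes did), 8 had an unadjusted p under 0.05, against 5.81% of all genes, and the median log2 difference was −0.05, the same as over all genes. None of the 32 partner genes that could enter the screen met it.

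The 7 other TRiC subunits had a median log2 difference of 0.01, from −0.03 to 0.07, so the chaperonin's totals lay close together. Cct7 was at 0.07 (SE 0.07, limma adjusted p = 0.85) and Tcp1, which encodes the alpha subunit, at 0.03 (SE 0.07, adjusted p = 0.94). Of 7 other augmin subunits, with a median of −0.02, Haus4 was at −0.17 (SE 0.10) and Haus6 at −0.20 (SE 0.12), both with an adjusted p of 0.79. The 16 other BAF subunits had a median of −0.09. Smarca2, a catalytic ATPase of the complex, had 9.88 ± 0.150 FPKM in mutants and 11.6 ± 0.820 FPKM in controls (log2 −0.23, SE 0.08, adjusted p = 0.79). Pbrm1, which reads acetylated histones, had 10.6 ± 0.923 FPKM in mutants and 12.4 ± 0.722 FPKM in controls (SD, n = 3 each; log2 −0.23, SE 0.09, adjusted p = 0.79).

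Of the connexin and pannexin genes, 9 of 10 were tested, with a median of −0.04. Gja1, connexin 43, had 12.2 ± 1.02 FPKM in mutants and 15.02 ± 1.44 FPKM in controls (SD, n = 3 each). Its log2 difference was −0.29 (SE 0.10, limma adjusted p = 0.79). The summed smooth muscle markers given beside Gjc1 were lower in mutants as well, though Des and Tagln alone overlapped between the groups. The part of these markers in the Gja1 values was not tested. The 6 PRL phosphatase and CNNM genes, whose proteins bind each other, had a median of −0.07, with Ptp4a1 at 0.14 (SE 0.08, adjusted p = 0.79) and Cnnm3 at −0.18 (SE 0.13, adjusted p = 0.80). Of the Ly6 family, 9 of 10 had a row and the median was 0.05, and the 2 smallest p-values were those of Ly6k at 0.68 and Ly6g6d at 0.67, each with an SE of 0.35 and an adjusted p of 0.79.

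The 10 fatty acid uptake genes had a median of −0.02. Scarb2, a lysosomal relative of Cd36, had 36.1 ± 5.49 FPKM in mutants and 44.7 ± 0.387 FPKM in controls (SD, n = 3 each; log2 −0.32, SE 0.12, limma adjusted p = 0.79), and Fabp2, the intestinal fatty acid binding protein, was at 0.34 (SE 0.28, adjusted p = 0.81). Among splicing regulators, 32 of 33 were tested, with a median of −0.10 and 4 at an unadjusted p under 0.05, all 4 lower in mutants. Most genes at that limit were lower in mutants, 685 of 922 in the same limma fit. After the libraries were rescaled by a trimmed mean of log ratios, 461 of 905 were lower. Without rescaling, 5 of the 32 splicing regulators had a positive difference, against 6142 of all 15864 genes. Whether this list still leaned lower after rescaling was not tested. Hnrnpa1, an RNA-binding protein that acts on splice site choice, had 6.51, 7.24 and 8.80 FPKM in mutant 1, 2 and 3, against 14.04, 11.3 and 11.5 FPKM in control 1, 2 and 3. The groups did not overlap, but the log2 difference of −0.70 (SE 0.14) had an adjusted p of 0.79. Hnrnpa1 has near-identical copies in the genome, and how reads were divided among them was not tested. Rbm39, a spliceosome-associated protein, had 68.4 ± 4.70 FPKM in mutants and 78.3 ± 0.722 FPKM in controls (SD, n = 3 each; log2 −0.20, SE 0.07, adjusted p = 0.79).

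**Figure D5:**
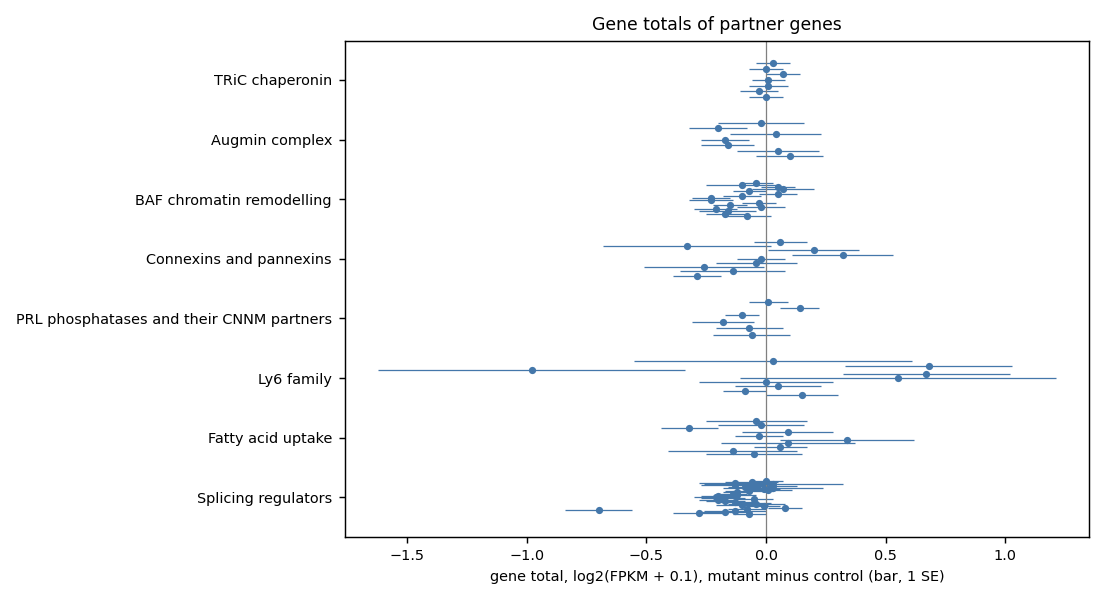
Log2 difference of gene totals, mutant minus control, on log2(FPKM + 0.1) (horizontal axis) for the 96 partner genes in 8 lists (vertical axis), with bars of 1 SE. The TRiC genes lie within −0.03 to 0.07, the Ly6 family spreads from −0.98 to 0.68, and the lowest splicing regulator is Hnrnpa1 at −0.70. The value of −0.98 is that of Ly6h (SE 0.64), with means of only 0.0409 FPKM in mutants and 0.235 FPKM in controls.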

How the data were processed

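The submitters' processing notes name CASAVA 1.8.2, TopHat, Cufflinks, DESeq and mm9, with other versions, read length and strand setting not given in the sources used here. The deposited tables, per the file headers, hold FPKM with confidence bounds for genes and transcripts, transcript length, and coverage as mean read depth. The authors' DESeq table holds size-factor normalized counts (a signal), a fold as a ratio and as log2, and p-values.

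The 8 genes and all lists were chosen with earlier results of these data known. limma 3.58.1 (R 4.3.3) with a trended variance was fitted to log2(FPKM + 0.1) for rows with a mean of at least 0.1 FPKM, without a block, and p-values were adjusted by Benjamini-Hochberg. Usage was the log2 ratio of a transcript to the rest of its gene, each plus 0.1, for genes with a mean of at least 1 FPKM. Usage and the screen left out 248 symbols with several loci. The scripts were tested on simulated data in 3 runs. The transcript fit recovered 54.0% of 2-fold and 86.0% of 4-fold changes, with 5.7 false calls per run. Each run held far more changed rows than there were calls in the real data. Its false calls are therefore no estimate of those among the real calls. The usage fit recovered 1.3% and 21.0%, with 0.7 false calls, so it misses most changes of these sizes. FPKM gives no counts, so precision was read from coverage and bounds.

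RefSeq transcripts were matched to GENCODE models of NCBIM37 (mm9) by ends and length, 23 of 27 with a match, and sequences come from that genome. The genes named were the 8 genes, the 2 partner genes per list with the smallest p, and up to 6 other screened genes per direction by usage difference. Of these and of the called transcripts, some are not reported here.

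Deviations of same-numbered mutants and controls from their group means had correlations of 0.11, 0.27 and 0.44 over genes, each over 0.1, and of 0.05, 0.09 and 0.22 over transcripts. With different numbers they ranged from −0.35 to 0.17 over genes. The main fit stayed without the block, and the blocked counts are given beside the results. The labels give no source of a pairing. Duodenal endocrine and patterning markers summed to 419 to 518 FPKM in mutants and 347 to 398 FPKM in controls, adipocyte markers to 0.392 to 1.24 FPKM in mutants and 1.2 to 2.62 FPKM in controls, and T cell markers to 43.6 to 59.4 FPKM in mutants and 38.7 to 44.0 FPKM in controls.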

Additional observations from a re-analysis of the deposited data

How the results depend on the processing

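The number of transcripts called, 9, became 3 with a pseudocount of 1, 16 with no filter, 0 with a minimum mean of 1 FPKM, 18 without the trend and 0 with the replicate block, and 0 to 12 when 1 library was left out. The usage count, 13, became 2, 8, 7, 23 and 0 under the same alternatives, and 0 to 13 when 1 library was left out. The gene count, 0, became 2 with the replicate block and 0 to 3 when 1 library was left out. In the 4 libraries with Y-linked transcripts, an alternative chosen after seeing the data, the counts were 0 transcripts, 0 for usage and 1 gene. The screen count, 13, became 5 with stricter shares (under 1% and at least 20%), 38 with looser shares (under and above 10%), 4 with a gene mean of at least 10 FPKM, 26 to 41 when 1 library was left out, and 78 in those 4 libraries. The cause of these shifts was not tested beyond what fewer libraries or rows do by construction.

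Of 880 single values under the alternatives, 822 moved by less than the replicate SD, 58 moved by more. Of all 880, 31 had the other sign than the main value, none of them of a near-0 transcript and none with a main value above 0.42 in size. Among them, the level difference of Cd36 NM_001159557 was 0.03 with all libraries and −1.44 without mutant 2. The usage difference of the near-0 transcripts kept its sign in 117 of 117. Like the absence of sign changes above, this follows from how these transcripts were chosen and supports nothing. The size of their usage difference is set by the pseudocount: 3.85 to 8.34 with 0.1 FPKM, 7.04 to 12.19 with 0.01 and 1.28 to 3.68 with 1. Levels near 0 are estimates with no read count behind them.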
